A study of Mus musculus with 8 samples.

Results

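The collagen and extracellular matrix genes described here are 35 genes of a fixed symbol list, found by matching the Ensembl identifiers of the count tables to a GRCm38 gene annotation. All 35 were found among the 49315 genes of each table, and all 35 passed the filter on low counts that left 19571 genes tested. They comprise 7 fibrillar collagen genes, 3 basement membrane collagen genes, the 3 genes of the beaded microfibril collagen VI, 3 other collagen genes, 2 genes of elastic microfibrils, 4 matrix glycoproteins, 3 small proteoglycans, 3 crosslinking enzymes, 3 genes of collagen folding and processing, and 1 matrix protease with 3 inhibitors.

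RNA was taken from the gastrocnemius, the large calf muscle, of C57BL/6 mice aged 3, 12, 24 or 30 months, and sequenced in 2 libraries per age. The labels give no mutation or treatment, and age was the labelled difference. Whether libraries of the same age are from different animals is not in the labels, and p-values therefore measure only the spread between libraries. Skeletal muscle was checked against its markers Myh4, Ckm, Acta1 and Mylpf, whose summed level was 61824 to 138322 CPM in the 8 libraries, where CPM are counts over a library total scaled by TMM factors.

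Each muscle fibre lies in a sleeve of basement membrane, built on a network of collagen IV, and the fibres are bundled by connective tissue whose strength comes from fibrils of collagens I, III and V. Collagen chains are hydroxylated and folded in the endoplasmic reticulum, secreted as procollagen, trimmed outside the cell, and joined to their neighbours by lysyl oxidases. In skeletal muscle many of these transcripts, the fibrillar collagens among them, are made largely by fibroblast-like interstitial cells, the fibro-adipogenic progenitors, and by tendon cells. Much of the matrix protein turns over slowly, so that a transcript level is not a measure of how much matrix is present.

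The counts per library totalled 42404254 to 59245029, and a count of 3 in a library corresponded to 0.0506 to 0.0707 CPM. The least abundant member, Timp1, had 10 to 57 counts per library and every other member at least 149, so Timp1 has the largest relative counting error. The libraries fell into sets that the age labels do not give. The summed level of 9 kidney genes was 35.6 and 12.5 CPM in the 3 month libraries, 4.38 and 0.76 CPM in those of 12 months, 4.16 and 0.682 CPM in those of 24 months, and 0.747 and 3.51 CPM in those of 30 months (replicates 1 and 2). Both 3 month libraries were thus above 1 CPM. So were replicate 1 at 12 months, replicate 1 at 24 months and replicate 2 at 30 months, and the other library of each later age was below 1 CPM. Age and this split overlap, because no library of 3 months was on the low side. Values without the libraries below 1 CPM are given after the comparisons, for all members together and for named members. They do not free the comparison with 3 months of the kidney signal, which was higher in both 3 month libraries than in any later one. In a model with this split as a term, the 7 tested kidney genes still had median log2 fold changes of -2.53, -2.55 and -2.48 for 30, 24 and 12 against 3 months. In bulk tissue, fewer cells of a type and less RNA per cell cannot be told apart.

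Promoter sequence is shown for fibrillar collagens, which had the lowest class median for 30 and for 24 against 3 months, and for Postn, which was called higher at 30 months in some of the fits described below. RefSeq promoters (GRCm38.p6) were matched for 23 of the 35 members. For 4 fibrillar genes and for Postn, 200 bases before the RefSeq start are printed, in windows that no annotated exon overlaps. Of the other fibrillar genes, Col1a1 and Col5a2 had no matched promoter, and the Col1a2 window overlaps an annotated exon. Capitals mark matches to the letters CCAAT, to the GC box letters GGGCGG, and to the TATA box letters TATAAA. Both strands were searched, so ATTGG marks the motif CCAAT on the opposite strand, and CCGCCC likewise marks GGGCGG. The motif TGANTCA was also searched on both strands and is in none of these 5 windows, and no matches overlapped.
Col3a1, chr1:45311338-45311537, plus strand: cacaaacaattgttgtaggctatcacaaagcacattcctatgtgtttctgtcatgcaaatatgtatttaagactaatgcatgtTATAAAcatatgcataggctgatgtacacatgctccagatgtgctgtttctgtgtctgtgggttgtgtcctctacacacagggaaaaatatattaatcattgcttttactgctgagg
Col5a1, chr2:27886225-27886424, plus strand: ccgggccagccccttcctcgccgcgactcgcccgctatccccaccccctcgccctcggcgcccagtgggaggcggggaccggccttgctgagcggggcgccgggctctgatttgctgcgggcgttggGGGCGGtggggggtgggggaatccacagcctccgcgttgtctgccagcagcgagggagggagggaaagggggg
Col11a1, chr3:114030340-114030539, plus strand: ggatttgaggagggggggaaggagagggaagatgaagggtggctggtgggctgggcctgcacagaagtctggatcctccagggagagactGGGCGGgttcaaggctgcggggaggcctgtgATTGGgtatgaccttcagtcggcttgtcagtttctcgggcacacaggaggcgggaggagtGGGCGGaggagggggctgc
Col5a3, chr9:20815068-20815267, minus strand: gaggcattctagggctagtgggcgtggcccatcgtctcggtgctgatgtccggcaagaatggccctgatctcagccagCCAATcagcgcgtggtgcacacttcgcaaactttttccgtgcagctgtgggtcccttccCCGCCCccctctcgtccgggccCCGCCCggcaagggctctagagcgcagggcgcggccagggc
Postn, chr3:54360907-54361106, plus strand: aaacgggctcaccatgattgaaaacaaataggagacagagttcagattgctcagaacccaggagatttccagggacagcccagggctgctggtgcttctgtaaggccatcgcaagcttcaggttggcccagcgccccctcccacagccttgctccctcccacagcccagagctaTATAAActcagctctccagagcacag

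The Col3a1 window holds TATAAA 117 bases before the start, and the printed Postn window holds it 26 bases before. Another Postn window, chr3:54359067-54359266, is also free of annotated exons. It is not printed and holds none of the motifs searched. The Col5a1 and Col11a1 windows hold GGGCGG, at 73 bases and at 110 and 19 bases before the start, and the Col5a3 window holds it on the opposite strand, at 63 and 41 bases. CCAAT is in the Col5a3 window at 122 bases and, on the opposite strand, in the Col11a1 window at 79 bases. Over the 300 bases of each RefSeq promoter, GGGCGG was found in 17 of the 23 members with a promoter and in 35.7% of all 32851 promoters. CCAAT was found in 8 members and 37.4% of promoters, TATAAA in 4 members and 13.6%, and TGANTCA in 1 member, Col6a1, and 7.81%. A member was counted when any of its promoters matched, and 3 members had several, whereas the percentages count single promoters. The shares are therefore not fully comparable. These matches describe letters only.

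The transcripts of the major fibrillar collagens had their highest levels in muscle of 3 months. Col1a1 (chromosome 11, 94936224 to 94953042, GRCm38) encodes the alpha 1 chain of collagen I, the main load-bearing fibril of tendon and of the sheaths around muscle bundles. It was at 447 and 505 CPM in the 3 month libraries, 261 and 93.6 CPM in those of 12 months, 119 and 44.1 CPM in those of 24 months, and 126 and 138 CPM in those of 30 months. All 6 later libraries lay below both libraries of 3 months, and the library lowest of all was replicate 2 of 24 months. The log2 fold change was -1.85 for 30 against 3 months (SE 0.54, adjusted p = 0.344) and -2.55 for 24 against 3 months (SE 0.56, adjusted p = 0.296) in edgeR's quasi-likelihood test, so neither comparison passed the threshold of 0.05.

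Col1a2 (chromosome 6, 4504814 to 4541544), which encodes the alpha 2 chain of the same molecule, followed the same order. Its levels were 446 and 503 CPM in the 3 month libraries, 346 and 169.9 CPM in those of 12 months, 172 and 86.4 CPM in those of 24 months, and 183 and 184 CPM in those of 30 months. Again no later library reached either library of 3 months. Col1a2 had a log2 fold change of -1.37 at 30 months (SE 0.38, adjusted p = 0.309) and -1.88 at 24 months (SE 0.39, adjusted p = 0.246), both against 3 months.

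Col3a1 (chromosome 1, 45311538 to 45349706) encodes collagen III, a fibrillar collagen of compliant tissues that mixes with collagen I in the endomysium. It was at 300.4 and 357 CPM in the 3 month libraries, 237 and 106 CPM in those of 12 months, 151 and 67.1 CPM in those of 24 months, and 117 and 201 CPM in those of 30 months. The 2 libraries of 30 months differed from each other by more than those of Col1a1 did, and both were still below 3 months. Its log2 fold change was -1.05 at 30 months (SE 0.48, adjusted p = 0.614) and -1.59 at 24 months (SE 0.49, adjusted p = 0.519).

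The minor fibrillar collagens, which nucleate fibrils and limit their diameter, lay lower in the later libraries too. Col5a1 averaged 48.5 ± 0.628 CPM in muscle of 30 months and 76.9 ± 11.6 CPM in muscle of 3 months (SD, n = 2 each). Col5a1 had a log2 fold change of -0.67 (standard error 0.24, adjusted p = 0.481). Col11a1 averaged 5.49 ± 0.491 CPM in muscle of 30 months and 10.4 ± 1.06 CPM in muscle of 3 months. Col11a1 had a log2 fold change of -0.92 (standard error 0.36, adjusted p = 0.534). Col5a2 averaged 38.3 ± 12.5 CPM in muscle of 30 months and 63.1 ± 7.92 CPM in muscle of 3 months. Col5a2 had a log2 fold change of -0.72 (standard error 0.41, adjusted p = 0.699). For each of these genes every later library was below both of 3 months. Col5a3, the third collagen V chain, was at 29.9 and 42.5 CPM in muscle of 30 months and at 57.7 and 69.6 CPM in muscle of 3 months. Its 24 month libraries were far apart, at 50.4 and 14.5 CPM, and its log2 fold changes of -0.81 at 30 months (SE 0.60, adjusted p = 0.798) and -0.97 at 24 months (SE 0.60, adjusted p = 0.733) had the widest errors of the class.

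Summed over the 7 fibrillar genes, the level was 1387 and 1599 CPM in the 3 month libraries, 1022 and 465 CPM in those of 12 months, 584 and 266 CPM in those of 24 months, and 540 and 666 CPM in those of 30 months. The 7 genes had a median log2 fold change of -0.92 for 30 against 3 months, -1.33 for 24 against 3 months and -0.73 for 12 against 3 months, while the medians over all 19571 genes tested were 0.01, 0.01 and 0.00. Both libraries of 30 months were below both of 3 months for 7 of 7 genes, which was true of 20.2% of all genes tested.

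**Figure D1:**
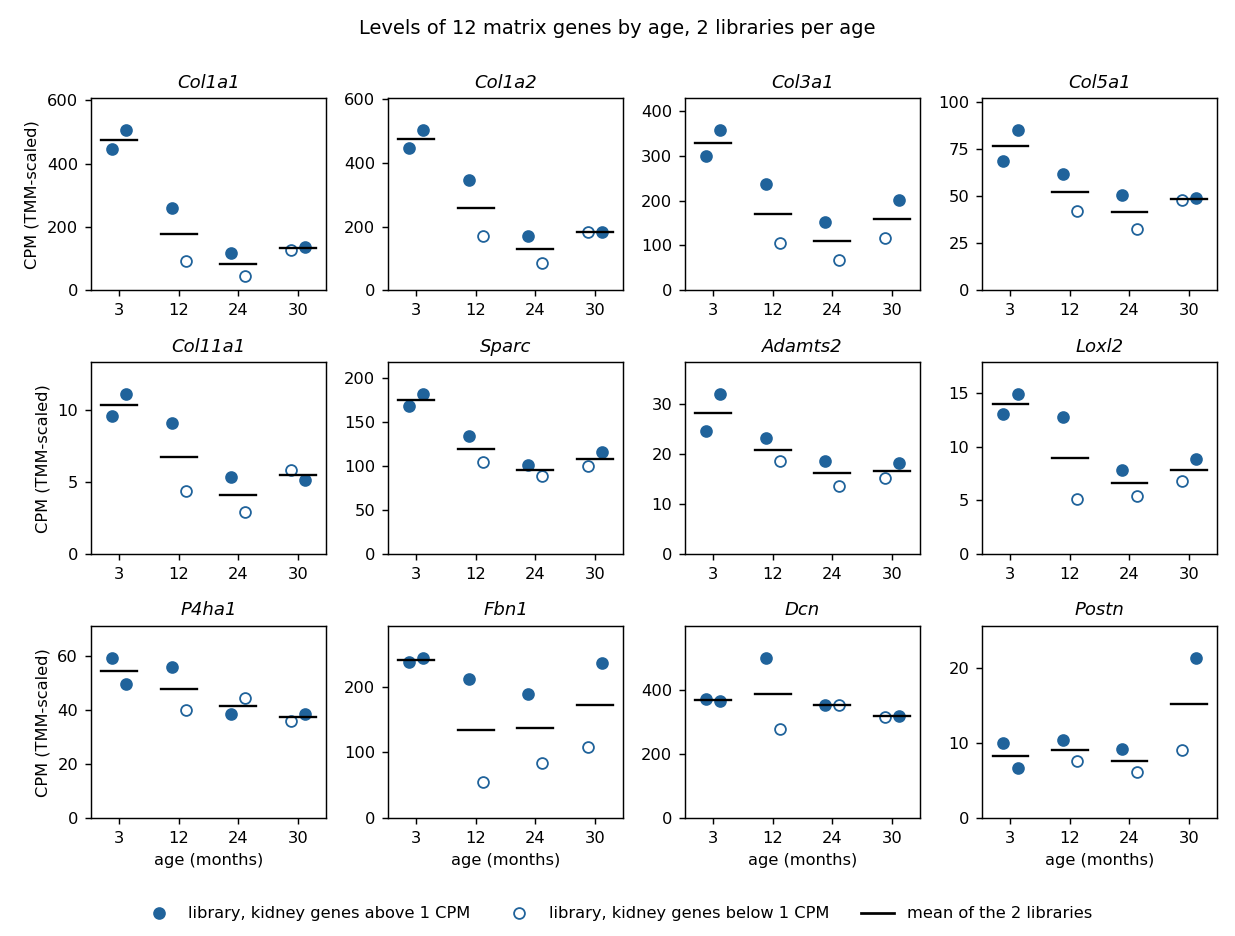
Levels of 12 matrix genes in CPM against age in months, with 1 point per library, open where the summed kidney genes were below 1 CPM, and a bar at the mean of the 2 libraries. Col1a1, Col1a2, Col5a1 and Sparc lie below both 3 month libraries at every later age, whereas Dcn overlaps at 12 months and Postn reaches 21.3 CPM in 1 library of 30 months.

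The relative levels of fibrillar chains were compared within each library. Counts per kilobase of exon gave Col1a1 over Col1a2 a ratio of 1.90 in both 3 month libraries, 1.43 and 1.04 in those of 12 months, 1.31 and 0.965 in those of 24 months, and 1.3 and 1.42 in those of 30 months. The 3 month ratio was above that of all 6 later libraries. Its size rests on the exon lengths used, 6563 bases for Col1a1 and 12426 for Col1a2, and is not a measure of chain proportions. In CPM the genes were nearly equal at 3 months, with 447 and 505 for Col1a1 and 446 and 503 for Col1a2. The ratio of Col3a1 over Col1a1, also per kilobase, was 0.450 and 0.473 in the 3 month libraries, 0.607 and 0.754 in those of 12 months, 0.851 and 1.02 in those of 24 months, and 0.620 and 0.976 in those of 30 months. Every later library thus had more Col3a1 for each Col1a1 than either library of 3 months. With 2 libraries per age, these ratios are given as values without a test.

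**Figure D2:**
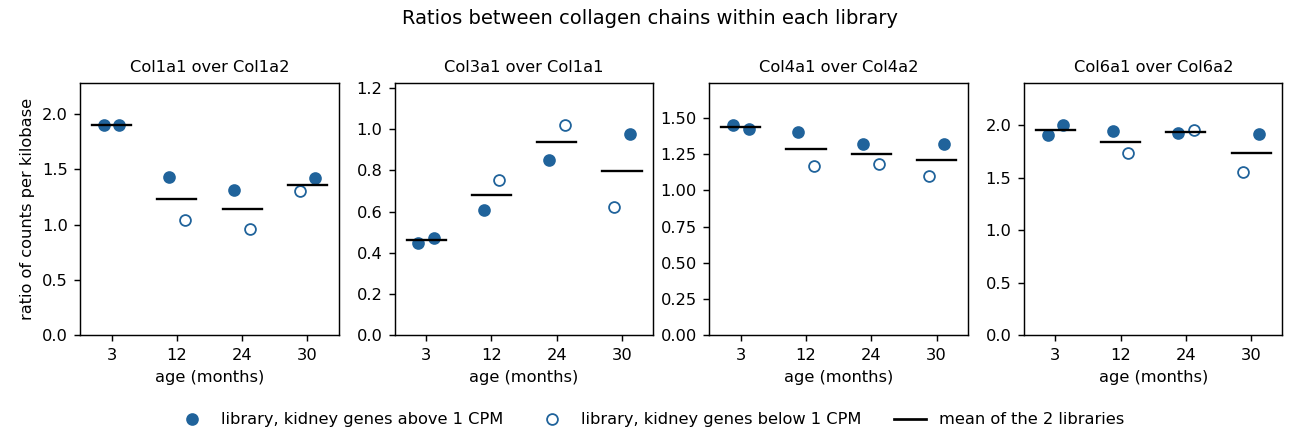
Ratios of counts per kilobase between collagen chains within each library, against age in months, with open points for libraries whose summed kidney genes were below 1 CPM and a bar at the mean. Col1a1 over Col1a2 is 1.90 in both libraries of 3 months and at most 1.43 later, and Col6a1 over Col6a2 overlaps between 3 months and the later ages.

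Basement membrane collagens showed smaller differences. Col4a1 and Col4a2 encode the chains of the collagen IV network and start next to each other on opposite strands of chromosome 8. Col4a1 was at 172 and 183 CPM in the 3 month libraries, 148 and 91.9 CPM in those of 12 months, 127 and 75.0 CPM in those of 24 months, and 108 and 140.0 CPM in those of 30 months. Col4a2 was at 105 and 114 CPM in the 3 month libraries, 93.3 and 69.6 CPM in those of 12 months, 85.4 and 56.2 CPM in those of 24 months, and 87.3 and 94.0 CPM in those of 30 months. For both chains the later libraries were all below those of 3 months. The log2 fold changes for 30 against 3 months were -0.52 for Col4a1 (SE 0.29, adjusted p = 0.696) and -0.28 for Col4a2 (SE 0.22, adjusted p = 0.813), and at 24 months they were -0.81 (SE 0.30, adjusted p = 0.587) and -0.63 (SE 0.22, adjusted p = 0.567). The exons of these genes share 22 bases at their starts, and the sources used here do not give the strand setting.

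Col15a1, a collagen of the zone where basement membranes meet the interstitial matrix, was at 60.6 and 62.3 CPM in the 3 month libraries, 61.9 and 30.2 CPM in those of 12 months, 47.0 and 26.7 CPM in those of 24 months, and 43.0 and 40.0 CPM in those of 30 months. Its libraries overlapped between 12 and 3 months and did not overlap at the later ages. It had a log2 fold change of -0.57 for 30 against 3 months (SE 0.34, adjusted p = 0.722). Set against collagen IV, the fibrillar transcripts differed more, since Col1a1 over Col4a1, per kilobase, was 2.94 and 3.15 at 3 months and 0.668 to 2.01 in the 6 later libraries.

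The other basement membrane genes, 11 laminins, nidogens and proteoglycans from a separate list, gave a different picture. Of these 11, 0 passed the test for 30 against 3 months, 5 had a negative and 6 a positive log2 fold change, and the median was 0.04. Nid1, which encodes the linker nidogen, was at 98.5 and 122 CPM in muscle of 30 months and 139.7 and 154 CPM in muscle of 3 months. Nid1 had a log2 fold change of -0.41 (standard error 0.21, adjusted p = 0.653). Agrn, which encodes agrin, the organizer of the neuromuscular synapse, was at 18.9 and 23.6 CPM in muscle of 30 months and 14.6 and 14 CPM in muscle of 3 months. Agrn had a log2 fold change of 0.57 (standard error 0.22, adjusted p = 0.518).

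Collagen VI forms beaded microfibrils in the sheath just outside the muscle basement membrane, and mutations in its chains cause muscular dystrophies in humans. Col6a1 was at 75.8 and 98.2 CPM in the 3 month libraries, 93.0 and 55.4 CPM in those of 12 months, 64.5 and 51.8 CPM in those of 24 months, and 52.9 and 62.0 CPM in those of 30 months. Of the 12 month libraries 1 lay within the 3 month range and 1 below it, and those of 24 and 30 months lay below it. Col6a2 kept the same pattern, with 64.9 and 61.6 CPM in muscle of 30 months, against 76.0 and 93.3 CPM in muscle of 3 months. Col6a3 did so too, with 99.6 and 102 CPM in muscle of 30 months, against 129.5 and 137 CPM in muscle of 3 months. The 3 chains had log2 fold changes of -0.60, -0.42 and -0.41 for 30 against 3 months (SE 0.25, 0.22 and 0.24, adjusted p = 0.568, 0.659 and 0.711). Their ratios overlapped between these ages, with Col6a1 over Col6a2, per kilobase, at 1.55 and 1.91 at 30 months and 1.90 and 2.00 at 3 months.

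Of the other collagens, Col14a1, a fibril-associated collagen that coats collagen I fibrils, was below both 3 month libraries in all later ones. It was at 31.0 and 33.0 CPM in the 3 month libraries, 28.8 and 11.3 CPM in those of 12 months, 24.8 and 13.7 CPM in those of 24 months, and 14.1 and 30.1 CPM in those of 30 months, with 1 library of each later age close to 3 months and the other far below. Its log2 fold change was -0.53 for 30 against 3 months (SE 0.50, adjusted p = 0.849). Col12a1, a related fibril-associated collagen of tendon and fascia, ranged from 18.8 CPM in replicate 2 of 24 months to 73.5 CPM in replicate 1 of 12 months, around 43.7 and 47.0 CPM at 3 months. Col8a1, a network-forming collagen of vessel walls, was at 5.20 to 11.3 CPM at the later ages and at 8.46 and 6.64 CPM at 3 months, with overlap at each age.

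Fbn1 encodes fibrillin-1, the backbone of the microfibrils that carry elastin and bind latent TGF-beta. It was at 237 and 243 CPM in the 3 month libraries, 212 and 55.1 CPM in those of 12 months, 189 and 83.9 CPM in those of 24 months, and 108 and 236 CPM in those of 30 months. On the opposite strand, 2442 of its 12128 exon bases are shared with the predicted gene Gm9913. In each later age the library whose kidney genes were below 1 CPM had less than 0.5 times the Fbn1 level of the other. Eln, which encodes elastin, was at 21.7 and 23.1 CPM in the 3 month libraries, 14.6 and 9.10 CPM in those of 12 months, 16.1 and 3.97 CPM in those of 24 months, and 6.81 and 20.8 CPM in those of 30 months, with the same libraries low. The log2 fold changes for 30 against 3 months were -0.48 for Fbn1 (SE 0.66, adjusted p = 0.905) and -0.70 for Eln (SE 0.69, adjusted p = 0.862), and in replicate 2 of 30 months alone Fbn1 differed from the mean of 3 months by -0.03 and Eln by -0.11 on the log2 scale.

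Among the glycoproteins, Sparc (chromosome 11, 55394500 to 55423183), a collagen-binding protein needed for orderly fibril assembly, had the lowest p of all members in the test across the ages. It was at 168 and 181 CPM in the 3 month libraries, 134 and 104 CPM in those of 12 months, 102 and 88.7 CPM in those of 24 months, and 99.8 and 116 CPM in those of 30 months. The libraries of 24 and of 30 months were closer together than those of 12 months, and all later libraries were below those of 3 months. Its log2 fold change was -0.70 at 30 months (SE 0.18, adjusted p = 0.259), -0.88 at 24 months (SE 0.18, adjusted p = 0.225) and -0.55 at 12 months (SE 0.18, adjusted p = 0.797), each against 3 months.

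Fn1, which encodes fibronectin, the cell-binding scaffold on which collagen fibrils are laid down, was at 105 and 197 CPM in muscle of 30 months and 179.5 and 209 CPM in muscle of 3 months, so the groups overlapped. Tnc, which encodes tenascin-C of tendon and the myotendinous junction, was at 7.33 to 36.8 CPM across the later libraries and 20.0 and 23.9 CPM at 3 months. Postn (chromosome 3, 54361109 to 54391037), a matricellular protein of healing and fibrotic tissue, was at 10 and 6.65 CPM in the 3 month libraries, 10.4 and 7.64 CPM in those of 12 months, 9.15 and 6.17 CPM in those of 24 months, and 9.11 and 21.3 CPM in those of 30 months. A single library, replicate 2 of 30 months, stood above the rest, and its partner lay within the range of 3 months. The log2 fold change of Postn was 0.87 for 30 against 3 months (SE 0.40, adjusted p = 0.614). In a model that also held the library set, chosen with earlier results of these data known, it was 1.15 (SE 0.24, adjusted p = 0.0431), and 1.48% of all genes were called higher in that fit.

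Replicate 2 of 30 months was also the highest library for the macrophage markers. These 6 genes summed to 110.4 and 181 CPM in muscle of 30 months and 108 and 116 CPM in muscle of 3 months. In the model that held the library set, 4 of these 6 markers were called higher for 30 against 3 months, against 1.48% of all genes. Replicate 2 of 30 months also had the highest sums for markers of Schwann cells (116.8 CPM), mural cells (460.3 CPM) and dividing cells (7.89 CPM). Its sums for muscle fibres (61824 CPM) and for cartilage and bone (1.97 CPM) were the lowest. It was not the highest for adipocyte, endothelial, fibro-adipogenic progenitor or tenocyte markers. The part of these cell types in the Postn value was not tested.

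Small leucine-rich proteoglycans, which bind collagen fibrils and space them, did not share the order of the collagens. Dcn, which encodes decorin, had the highest level of all members per kilobase of exon, with a mean of 171 CPM per kilobase over the 8 libraries. It was at 372 and 365 CPM in the 3 month libraries, 499 and 276 CPM in those of 12 months, 352 and 352 CPM in those of 24 months, and 316 and 318 CPM in those of 30 months. The libraries of 12 months lay on either side of those of 3 months, and those of 24 and 30 months lay just below. Dcn had a log2 fold change of -0.22 for 30 against 3 months (SE 0.25, adjusted p = 0.884). Bgn, which encodes biglycan, averaged 51.7 ± 20.8 CPM in muscle of 30 months and 46.5 ± 6.39 CPM in muscle of 3 months, and Lum, which encodes lumican, averaged 24.7 ± 5.42 CPM in muscle of 30 months and 20.7 ± 6.34 CPM in muscle of 3 months.

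Of the crosslinking enzymes, which oxidize lysines of collagen and elastin, Loxl2 differed most. It was at 13.1 and 14.9 CPM in the 3 month libraries, 12.8 and 5.13 CPM in those of 12 months, 7.83 and 5.41 CPM in those of 24 months, and 6.83 and 8.89 CPM in those of 30 months. All later libraries were below those of 3 months, though replicate 1 of 12 months was close to them. Loxl2 had a log2 fold change of -0.83 at 30 months (SE 0.38, adjusted p = 0.614) and -1.08 at 24 months (SE 0.38, adjusted p = 0.587). Lox, the founding member of the family, was at 11.3 and 13 CPM in muscle of 30 months and 14 and 19.4 CPM in muscle of 3 months. Lox had a log2 fold change of -0.46 (standard error 0.39, adjusted p = 0.826). Loxl1, needed for elastic fibre renewal in mice, was at 21.1 and 22.7 CPM in muscle of 30 months and 19.4 and 22.8 CPM in muscle of 3 months, and the groups overlapped.

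Genes of collagen folding and processing had lower means at the later ages. Adamts2 (chromosome 11, 50602084 to 50807573), the protease that removes the amino-terminal propeptide of fibrillar procollagens, was at 24.5 and 31.9 CPM in the 3 month libraries, 23.1 and 18.5 CPM in those of 12 months, 18.6 and 13.6 CPM in those of 24 months, and 15.1 and 18.1 CPM in those of 30 months. Every later library was below those of 3 months. Its log2 fold change was -0.77 at 30 months (SE 0.21, adjusted p = 0.29) and -0.81 at 24 months (SE 0.21, adjusted p = 0.37), and its slope on age had the lowest adjusted p of the members, 0.136.

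P4ha1, the catalytic subunit of a collagen prolyl hydroxylase, was at 59.0 and 49.6 CPM in the 3 month libraries, 55.6 and 39.7 CPM in those of 12 months, 38.3 and 44.4 CPM in those of 24 months, and 36.0 and 38.4 CPM in those of 30 months. Libraries of 24 and 30 months lay below both of 3 months, and 1 of 12 months lay between them. P4ha1 had a log2 fold change of -0.55 at 30 months (SE 0.19, adjusted p = 0.439). Serpinh1, which encodes the collagen chaperone HSP47, was at 38.1 and 60.0 CPM in muscle of 30 months, against 73.4 and 68.5 CPM in muscle of 3 months, with 87.5 CPM in replicate 1 of 12 months the highest level of all, and a log2 fold change of -0.53 for 30 against 3 months (SE 0.39, adjusted p = 0.791).

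Further biosynthesis genes came from a separate list of 18, of which 0 passed the test for 30 against 3 months, 12 had a negative log2 fold change and the median was -0.11. Adamts3, a procollagen protease related to Adamts2, was at 1.49 and 1.35 CPM in muscle of 30 months and 3.00 and 3.43 CPM in muscle of 3 months. Adamts3 had a log2 fold change of -1.18 (standard error 0.34, adjusted p = 0.309). P4ha2, an alternative catalytic subunit beside P4ha1, was at 15.3 and 18.9 CPM in muscle of 30 months and 25.7 and 23.7 CPM in muscle of 3 months. P4ha2 had a log2 fold change of -0.53 (standard error 0.16, adjusted p = 0.334). Loxl4, a further lysyl oxidase, was at 3.21 and 2.72 CPM in muscle of 30 months and 6.87 and 5.60 CPM in muscle of 3 months. Loxl4 had a log2 fold change of -1.07 (standard error 0.36, adjusted p = 0.428). The sums over the 18 genes overlapped, with 449 and 422 CPM in muscle of 30 months and 402 and 451 CPM in muscle of 3 months.

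The protease Mmp2, a gelatinase that cleaves collagen IV and denatured collagen, was at 49.6 and 55.4 CPM in muscle of 30 months and 48.8 and 64.1 CPM in muscle of 3 months, and the groups overlapped. Its inhibitors differed from each other. Timp1, an inducible inhibitor, was at 0.373 and 1.07 CPM in muscle of 30 months and 0.324 and 0.259 CPM in muscle of 3 months. Timp1 had a log2 fold change of 1.32 (standard error 0.57, adjusted p = 0.576), with replicate 2 of 30 months again the highest library. Timp2 was at 80.7 and 88.8 CPM in muscle of 30 months and 90.7 and 117 CPM in muscle of 3 months. Timp3, an inhibitor bound to the matrix, was at 100.7 and 60.2 CPM in muscle of 30 months and 72.5 and 68.4 CPM in muscle of 3 months, and it was the member for which the libraries with low kidney genes were the higher ones at all 3 later ages. Timp3 lies within Syn3 on the opposite strand, and 1733 of its 8144 exon bases are shared with Syn3 exons, so reads in that stretch cannot be told apart without the strand setting. Timp1 lies within Syn1 and shares 0 exon bases with it. Timp4, an inhibitor of heart and skeletal muscle from a list of 13 other proteases and inhibitors, was at 13.3 and 17.5 CPM in muscle of 30 months and 32.9 and 31.8 CPM in muscle of 3 months. Timp4 had a log2 fold change of -1.07 (standard error 0.23, adjusted p = 0.168), and 0 of the 12 tested genes of that list passed. In the model that also held the library set, 1 gene of that list was called lower for 30 against 3 months, against 0.644% of all genes.

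Across the whole set, edgeR called 0 of the 35 members at an adjusted p below 0.05 for 30 against 3 months, where 0.148% of all genes tested were called. At an unadjusted p below 0.05, 8 members were lower and 1 higher, against 3.34% and 5.18% of all genes. DESeq2 called 1 member, Col1a2, at an adjusted p of 0.00426, against 1.09% of all genes, and limma-voom called 0. For 24 against 3 months 0 members were called, against 0.102% of all genes, 15 were lower and 0 higher at an unadjusted p below 0.05, against 3.33% and 4.23% of all genes, and limma-voom called 0. DESeq2 called 4 for 24 against 3 months (Col1a1, Col1a2, Col11a1 and Sparc), against 0.68% of all genes. For 12 against 3 months 0 were called, against 0.0409% of all genes, with 4 lower (Col1a1, Col1a2, Col5a1 and Sparc) at an unadjusted p below 0.05, against 2.34%, and 0 by DESeq2 or limma-voom.

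Over all 8 libraries, comparisons among the later ages held 0 calls by edgeR, DESeq2 or limma-voom. edgeR called 0.00511% of all genes for 30 against 12 months, 0% for 30 against 24 months and 0% for 24 against 12 months. At an unadjusted p below 0.05 they held 0 members, 1 higher (Postn, log2 fold change 0.99) and 1 lower (Col1a2, log2 fold change -1.0), in that order of comparisons, against 5.21%, 3.1% and 3.07% of all genes in either direction. The test across the 4 ages called 0 members, against 0.0613% of all genes, with 6 at an unadjusted p below 0.05, against 5.66%, 2 by DESeq2 (Col1a2 and Sparc), against 1.18%, and 0 by limma-voom. A slope on age in months called 0 members, against 0.133% of all genes, with 12 lower and 1 higher at an unadjusted p below 0.05, against 4.4% and 5.43%, 3 by DESeq2 (Adamts2, Col1a2 and Sparc), against 1.52%, and 0 by limma-voom.

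Directions were counted over all members. The log2 fold change was negative for 28 of 35 members at 30 months, 32 at 24 months and 26 at 12 months, each against 3 months, against 48.6%, 48.1% and 49.5% of all genes. Their medians were -0.48, -0.69 and -0.41. Both libraries lay below both of 3 months for 26, 27 and 15 members at 30, 24 and 12 months, which held for 20.2%, 19.4% and 19.2% of all genes. All 6 later libraries lay below both of 3 months for 15 members, which held for 6.08% of all genes, and above both for 0 members, against 6.86%. These 15 were the 7 fibrillar collagens, Col4a1, Col4a2, Col14a1, Fbn1, Eln, Sparc, Loxl2 and Adamts2. These comparisons share the libraries of 3 months, and the counts are not independent of each other.

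**Figure D3:**
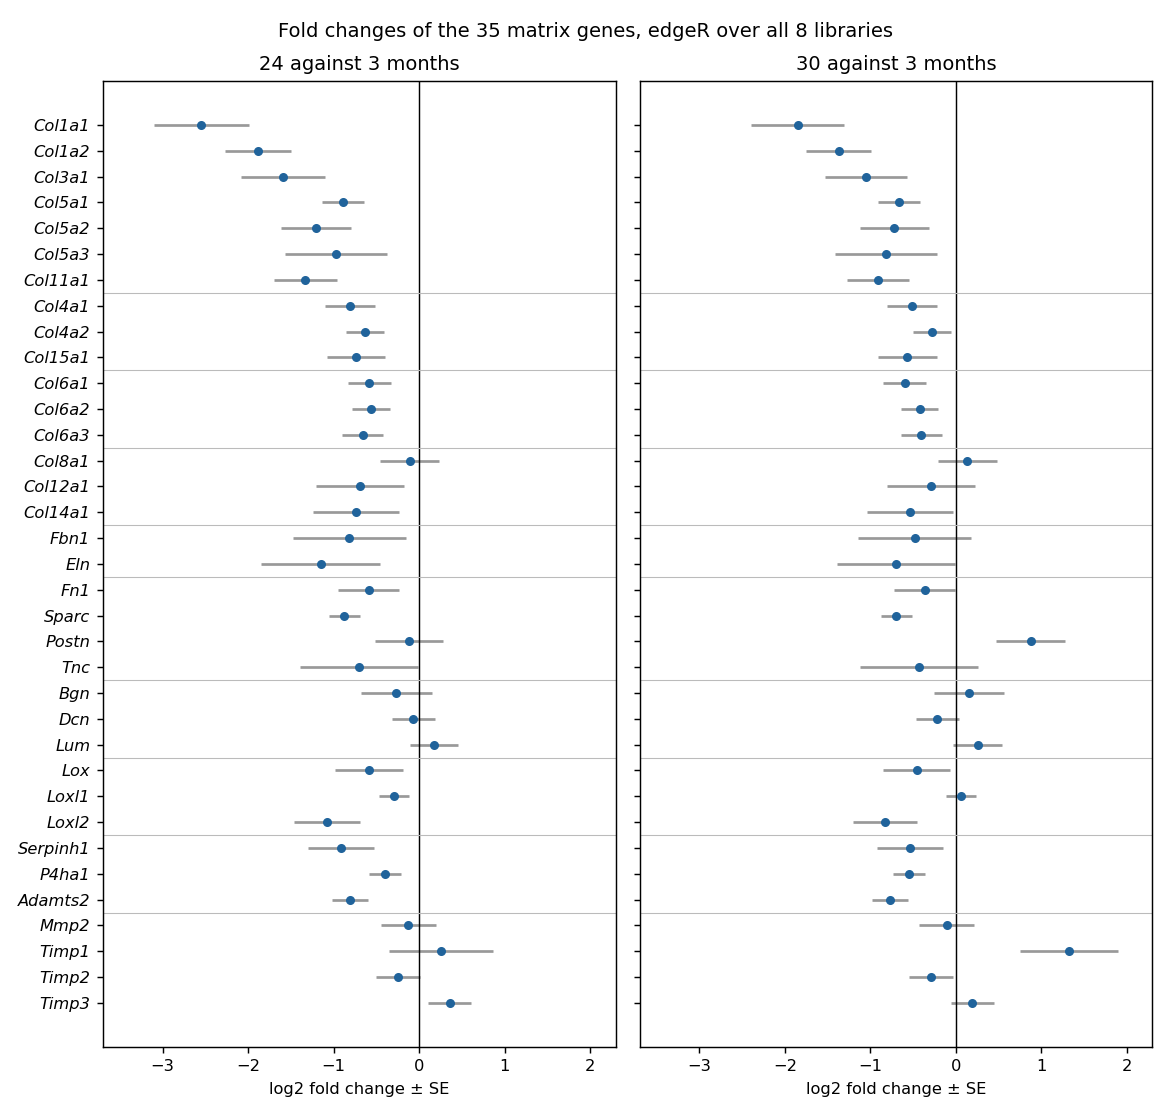
Log2 fold change with its SE for each of the 35 genes, grouped by class, for 24 against 3 months and 30 against 3 months, from edgeR over all 8 libraries. The fibrillar collagens at the top reach -2.55 and -1.85 for Col1a1, while Timp1 at 1.32 and Postn at 0.87 lie to the right at 30 months.

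The collagens and the other members differed in size. The 16 collagen genes had median log2 fold changes of -0.58, -0.77 and -0.57 for 30, 24 and 12 against 3 months, and the 19 other members had -0.36, -0.39 and -0.15. By class the median for 30 against 3 months was -0.92 for fibrillar collagens, -0.59 for elastic microfibrils, -0.52 for basement membrane collagens, -0.42 for collagen VI and -0.30 for the other collagens. It was -0.40 for matrix glycoproteins, -0.55 for folding and processing, -0.46 for crosslinking, 0.15 for small proteoglycans and 0.04 for the protease and its inhibitors. The difference between classes was not tested.

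**Figure D4:**
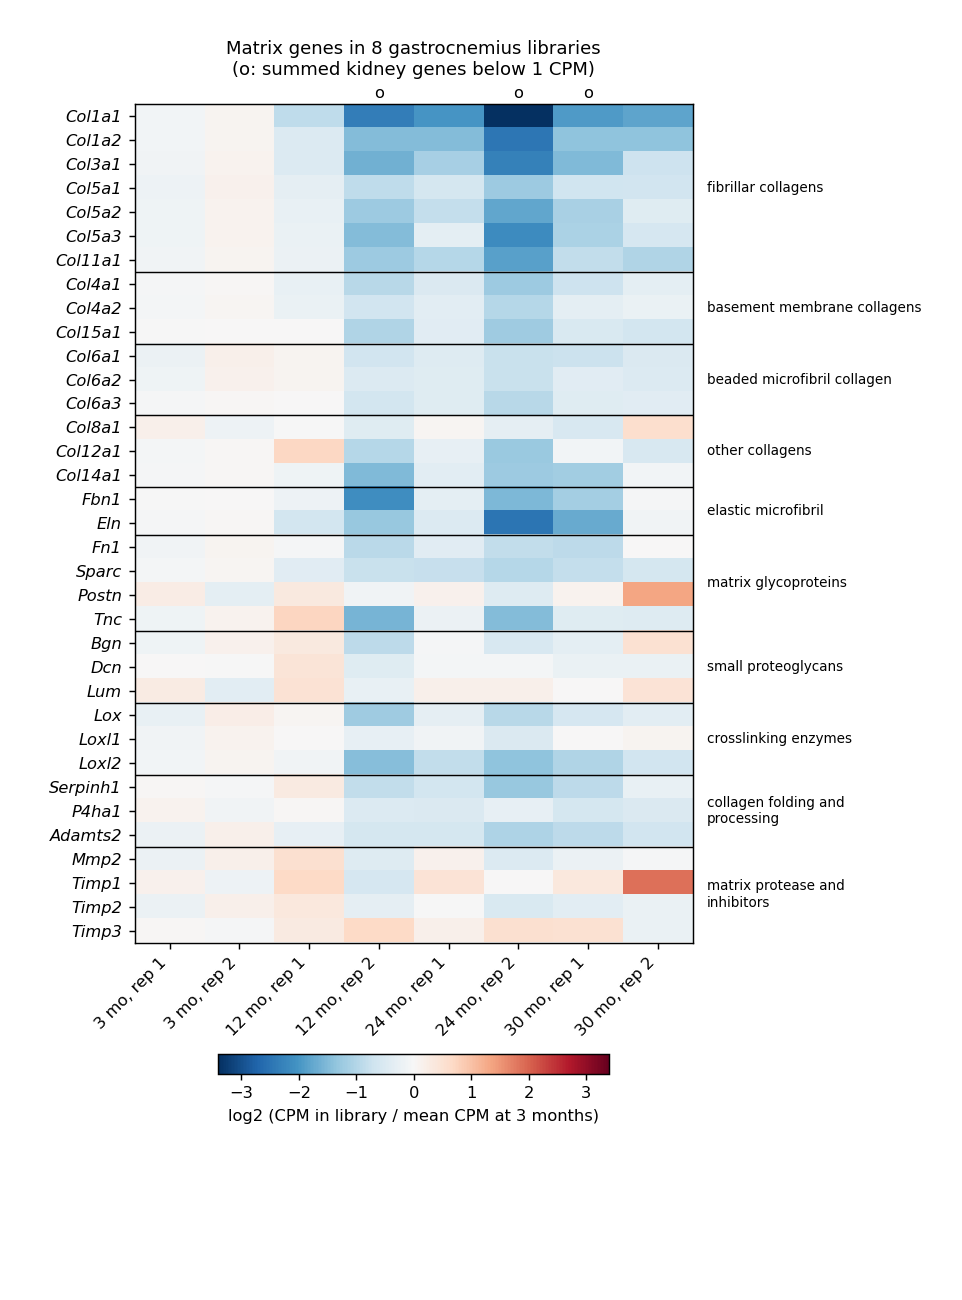
Level of each of the 35 genes in each of the 8 libraries, as the log2 ratio to its mean CPM at 3 months, in rows by class and columns by age, with a circle over libraries whose summed kidney genes were below 1 CPM. Replicate 2 of 24 months is the lowest library for 22 members and replicate 2 of 3 months the highest for 22.

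Single libraries carried much of the spread. Replicate 2 of 24 months was the lowest library for 22 of the 35 members and replicate 2 of 12 months for 9, and both belong to the libraries with low kidney genes. Within an age, the library with low kidney genes was below its partner for 34 members at 12 months, 31 at 24 months and 29 at 30 months, against 74.6%, 80.7% and 70.7% of all genes tested. The median log2 difference between them was -0.87, -0.60 and -0.22 for the members and -0.45, -0.36 and -0.21 for all genes. The summed muscle fibre markers ran the other way, and were higher in the library with low kidney genes at each later age. Their sums were 107322 CPM against 88563 CPM in its partner at 12 months, 138322 CPM against 88397 CPM at 24 months, and 113090 CPM against 61824 CPM at 30 months. Taken singly, Mylpf was lower at 12 months in the library with low kidney genes, at 5782 CPM against 7214 CPM in its partner. Replicate 2 of 24 months was the highest of all for the summed markers, and their part in the member values was not tested.

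Restricting the comparison to the 5 libraries above 1 CPM left 1 library at each later age. Against the mean of 3 months the members then had a median log2 difference of 0.00 at 12 months, with 16 of 35 lower, -0.37 at 24 months, with 29 lower, and -0.34 at 30 months, with 28 lower, where 38.1%, 67.4% and 58.6% of all genes were lower. Col1a1 still differed by -0.86, -2.00 and -1.79, and Col1a2 by -0.45, -1.46 and -1.36, at 12, 24 and 30 months.

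When the model held the library set beside age, over all 8 libraries, 3 members were called lower for 24 against 3 months, where 0.118% of all genes were. They were Col3a1 (log2 fold change -1.18, SE 0.17, adjusted p = 0.0127), Col1a2 (-1.62, SE 0.25, adjusted p = 0.0319) and Col5a2 (-0.85, SE 0.15, adjusted p = 0.0425). For 30 against 3 months that fit called 0 members lower, against 0.644% of all genes. The median over the members was -0.15 at 30 months and -0.39 at 24 months in that fit. The same model called 1 member across the ages (Col3a1), against 1.04% of all genes, and 1 for the slope (Adamts2, lower), against 1.51%.

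A fit of the 5 libraries above 1 CPM alone, added after seeing the data, had 1 residual degree of freedom (3 for the slope), and its later libraries, 1 per age, are assumed to vary as those of 3 months did. For 30 against 3 months it called 7 members, against 4.1% of all genes tested in it. Of these, Col1a1 (-1.79, adjusted p = 4.36e-05), Col1a2 (-1.36, adjusted p = 0.000547), Col11a1, Col3a1 and Col15a1 were lower, and Postn (1.36, adjusted p = 0.00827) and Timp1 (1.88, adjusted p = 0.0184) were higher. For 24 against 3 months it called 7 members, all lower, against 0.997% of all genes, namely Col1a1, Col1a2, Col3a1, Col5a2, Col11a1, Loxl2 and Sparc. For 12 against 3 months it called Col1a1 alone, against 0.55% of all genes. Among the later ages it called 4 members for 30 against 12 months (Col1a1, Col1a2, Col12a1 and Tnc), against 1.15% of all genes, 0 for 30 against 24 months, against 0.137%, and Col1a1 for 24 against 12 months, against 0.133%. Across the ages it called 10 members, against 3.03%, and for the slope 8, against 2.47%. Fold changes, taken on the linear scale, moved by over 1.5 times in that fit for 6 of the values against 3 months. In log2, Eln was at -0.11 at 30 months and -0.47 at 24 months, and Col5a3 at -0.34 at 24 months. At 12 months Fbn1 was at -0.19, Col12a1 at 0.69 and Tnc at 0.74. Other log2 values changed by less than that limit, such as Fbn1 from -0.48 to -0.03 and Fn1 from -0.36 to 0.03 at 30 months.

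Further settings also moved a count of called members. Without a filter on low counts, 2 members (Adamts2 and Sparc) were called for 30 against 3 months, against 1.12% of all genes. That setting called 3 for 24 against 3 months, against 0.693%, 3 across the ages, against 1.4%, and 1 for the slope, against 0.318%. With the 4 libraries of 30 and 3 months alone, Col1a1 was called, against 0.176% of all genes.

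Markers of cells that make many of these transcripts, and of other cell types, were measured in the same libraries. The 8 markers of fibro-adipogenic progenitors, led by Smoc2, Pdgfra and Cd34, summed to 394 and 436 CPM in the 3 month libraries, 446 and 295 CPM in those of 12 months, 361 and 312 CPM in those of 24 months, and 325 and 362 CPM in those of 30 months, and 0 of 8 passed the test for 30 against 3 months. The 7 tenocyte markers, led by Thbs4, Comp and Chad, summed to 199 and 226 CPM in the 3 month libraries, 299.6 and 102 CPM in those of 12 months, 145 and 89.7 CPM in those of 24 months, and 155 and 139.7 CPM in those of 30 months, with 5 of 7 negative for 30 against 3 months and 0 called. Both lists had lower sums at 24 and 30 months than at 3 months, by less than the fibrillar collagens did, and their part in the collagen values was not tested. Endothelial markers, 6 genes led by Cdh5, Pecam1 and Kdr, summed to 156 and 220.1 CPM in muscle of 30 months and 220.1 and 207 CPM in muscle of 3 months. Mural cell markers, 6 genes led by Rgs5, Pdgfrb and Myh11, summed to 331 and 460.3 CPM in muscle of 30 months and 426 and 368 CPM in muscle of 3 months. Cartilage and bone markers summed to at most 5.4 CPM in any library, and no list of markers had a defining gene at 0 in all 8 libraries.

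**Figure D5:**
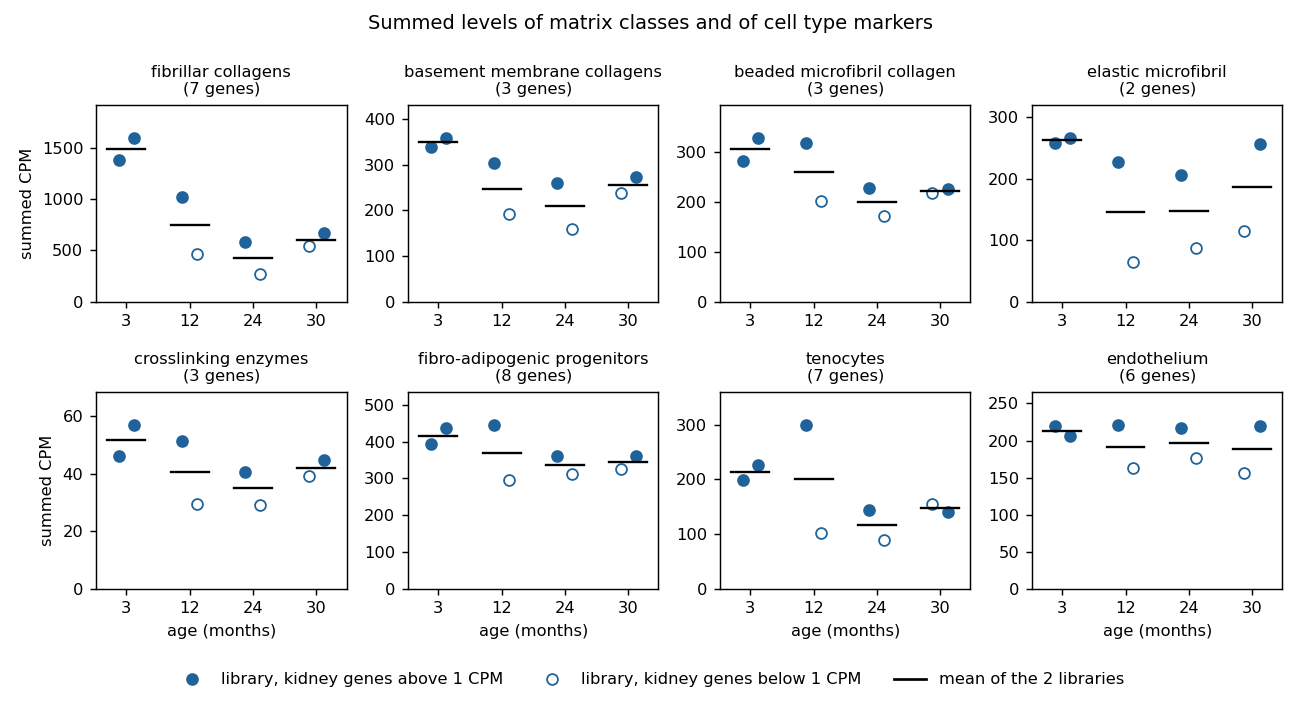
Summed CPM of 5 matrix gene classes and of markers of 3 cell types against age in months, with 1 point per library, open where the summed kidney genes were below 1 CPM, and a bar at the mean. Fibrillar collagens sum to 1387 and 1599 CPM at 3 months and to at most 1022 CPM later, while sums of endothelial markers overlap between all ages.

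Regulators and receptors of the matrix held 0 calls in the fit of age alone. With the library set in the model, 1 gene of TGF-beta signalling was called lower for 24 against 3 months, against 0.118% of all genes. Of 18 genes of TGF-beta signalling, the pathway that drives collagen transcription in fibroblasts, 0 passed the test for 30 against 3 months, 8 had a negative log2 fold change and the median was 0.03. At an unadjusted p below 0.05 for 30 against 3 months, 4 were higher and 1 lower, against 5.18% and 3.34% of all genes. Ccn2, a matricellular target of that pathway, was at 20.4 and 27.0 CPM in muscle of 30 months and 35.8 and 31.2 CPM in muscle of 3 months. Ccn2 had a log2 fold change of -0.50 (standard error 0.17, adjusted p = 0.407). Tgfb3, a ligand, was at 49.7 and 43.3 CPM in muscle of 30 months and 34.9 and 36.0 CPM in muscle of 3 months. Tgfb3 had a log2 fold change of 0.39 (standard error 0.15, adjusted p = 0.496). Ccn1, a relative of Ccn2, had a log2 fold change of 0.53 (standard error 0.20, adjusted p = 0.501).

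Of 12 matrix receptors 0 passed and 9 had a negative log2 fold change, with a median of -0.07. At an unadjusted p below 0.05, 2 receptors were higher and 1 lower, against 5.18% and 3.34% of all genes. Itga2, a subunit of a collagen-binding integrin, was at 1.10 and 1.13 CPM in muscle of 30 months and 2.33 and 2.54 CPM in muscle of 3 months. Itga2 had a log2 fold change of -1.13 (standard error 0.48, adjusted p = 0.571). Ddr1, a collagen receptor kinase, was at 25.1 and 14.9 CPM in muscle of 30 months and 11.1 and 14.2 CPM in muscle of 3 months, and Itga7, the laminin receptor subunit of muscle fibres, was at 87.8 and 105 CPM in muscle of 30 months and 71.0 and 75.4 CPM in muscle of 3 months. Of 14 other microfibril and small proteoglycan genes 0 passed and 10 had a negative log2 fold change, with a median of -0.17. Fmod, which encodes fibromodulin of tendon, was at 103 and 93.7 CPM in muscle of 30 months and 184 and 222 CPM in muscle of 3 months. Fmod had a log2 fold change of -1.05 (standard error 0.60, adjusted p = 0.709).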

How the data were processed

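Per the labels' protocols, Trizol was used for RNA of frozen muscle and a NEBNext Ultra kit for the libraries. The authors deposited raw counts for each Ensembl gene. The submitters' processing notes name Trimmomatic 0.36, STAR 2.5.2b, featureCounts and Subread 1.5.2, and the builds GRCm38 and mm10. Annotation release and strand setting are not given. Symbols and coordinates came from GENCODE M21, which matched 49056 of 49315 identifiers.

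Counts were fitted in R 4.3.3 with edgeR 4.0.16 (filterByExpr, TMM scaling, robust quasi-likelihood fit of 4 ages over 8 libraries, 4 residual degrees of freedom), with a separate model for the slope on age. P-values were adjusted by Benjamini-Hochberg over all 19571 genes tested, with calls below 0.05. The standard error is the size of the log2 fold change over the root of its F value. CPM are TMM-scaled, and ± is the SD of 2 libraries. Classes were summed or given as medians without tests. Full statistics were given for members called in any comparison and for the 12 with the lowest p across the ages; values for some other members were added after they were seen. Up to 3 genes of each other list with the lowest p for 30 against 3 months were eligible to be named. Members, classes and lists were chosen with earlier results of these data known. Procedures were tested on simulated data.

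Alternatives were RLE factors, library totals, no filter, a filter of 1 CPM in 2 libraries, DESeq2 1.42.0, limma-voom (limma 3.58.1), only the 4 libraries compared, a replicate block, each library left out, and the library set in the model (9 kidney genes, summed level above or below 1 CPM, 3 residual degrees of freedom) or only the 5 libraries above 1 CPM (1 residual degree of freedom), both added after seeing the data.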

Additional observations from a re-analysis of the deposited data

How the results depend on the processing

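Of 142 alternative counts of called members, 122 stayed at 0, among them all those under RLE factors, library totals alone, the filter of 1 CPM in 2 libraries, limma-voom, the replicate block and each library left out. Leaving out each library in turn gave 0 to 0 called members in every comparison. Without a low count filter 2 members were called for 30 against 3 months (Adamts2, Sparc), 3 for 24 against 3 months and 3 across the ages (Adamts2, Col5a1, Sparc in both), and 1 for the slope (Adamts2). DESeq2 called 1, 4, 2 and 3 in these comparisons. All were lower, except that the test across the ages gives no direction. With only the 4 libraries compared, 1 (Col1a1) was called for 30 against 3 months. With the library set in the model, 1 (Postn, higher) was called for 30 against 3 months, 3 for 24 against 3 months, 1 (Col3a1) across the ages and 1 (Adamts2) for the slope. With only the 5 libraries above 1 CPM of kidney genes, chosen after seeing the data, 7 were called for 30 against 3 months, 7 for 24 against 3 months, 1 for 12 against 3 months, 4 for 30 against 12 months, 1 for 24 against 12 months, 10 across the ages and 8 for the slope. That fit has fewer samples and 1 residual degree of freedom. The cause of these differences was not tested.

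The replicate block changed no call, with 0 members called. The numbers share only a number between ages: deviations of same-numbered libraries correlated at -0.36 to 0.26.

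Over all 35 members and alternatives, 10 log2 fold changes for 30 against 3 months, 6 for 24 against 3 months and 17 for 12 against 3 months changed sign at least once. Of those followed one by one, 3 did so: P4ha1 for 12 against 3 months was 0.02 without replicate 2 of 12 months (-0.45 to 0.02 over the libraries left out) and 0.03 with only the 5 libraries above 1 CPM, Fbn1 for 30 against 3 months was 0.12 once the library set was in the model, and Fn1 for 30 against 3 months was 0.02 without replicate 1 of 30 months (-0.89 to 0.02 over the libraries left out) and 0.03 with only those 5 libraries. Members with a negative value numbered 25 to 30 for 30 against 3 months and 27 to 32 for 24 against 3 months over all alternatives. For 12 against 3 months they numbered 18 to 34, with 34 and a median of -0.86 without replicate 1 of 12 months, and 19 and a median of -0.01 without replicate 2. Medians of classes moved with single libraries. At 12 months, fibrillar collagens had -1.48 without replicate 1 of 12 months and -0.32 without replicate 2. At 24 months they had -2.13 without replicate 1, and elastic microfibrils had -2.00. At 30 months, elastic microfibrils had -1.43 without replicate 2 and small proteoglycans 0.46 without replicate 1 and -0.22 without replicate 2. Once the model held the library set, the 30 month median of matrix glycoproteins was 0.10 and that of basement membrane collagens -0.22. With 2 libraries per age these comparisons have 4 residual degrees of freedom, and only Timp1 had fewer than 149 counts in any library.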
